A study of Homo sapiens with 10 samples.

Results

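The comparison described is that of the miRNAs recovered from HepG2 cells with a STAT3 probe and with a control probe. HepG2 is a human liver tumour line, and STAT3 is a transcription factor that cytokine receptors activate. In the miRIP procedure a nucleic acid probe was transfected into the living cells and left for 24 hours, and the RNA attached to it was drawn out on streptavidin beads. Each probe had 1 purification, run on 2 quantitative PCR panels, so 4 of the 10 samples of the series belong here: the control probe on panel 1 and panel 2 and the STAT3 probe on panel 1 and panel 2. Members were all assays whose name held miR or let, 745 in all, with 375 on panel 1 and 370 on panel 2. A Cq, the PCR cycle at which the signal crosses the threshold, was called detected at or under 35; a lower Cq means more template. By that limit 281 of the 745 assays were detected with at least 1 of the probes: 100 with both, 156 with STAT3 only and 25 with the control only. Neither the probe sequences nor a measure of STAT3 mRNA was used here, so how much of that mRNA each probe recovered was not analysed.

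A miRNA is a short RNA that guides an Argonaute protein to a messenger RNA, mainly by pairing of its seed, bases 2 to 8 from its 5′ end. Precursor hairpins yield a guide strand, which is usually the more abundant, and a passenger strand, which the panels mark with a star. Many miRNA genes lie in clusters that are transcribed together, and miRNAs with the same seed are grouped as a family. The control probe measures what beads and an unrelated probe carry along, so each STAT3 value is read against it.

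The sequences below are those on which the comparison turns, with the seed in capitals, from RefSeq (GRCh38.p14). The first 4 share a seed and are shown because 3 of them were among the 15 highest of the assays detected with both probes, while the other was detected with the control probe only.
miR-92b: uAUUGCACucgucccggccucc
miR-92a: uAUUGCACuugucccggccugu
miR-25: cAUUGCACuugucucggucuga
miR-32: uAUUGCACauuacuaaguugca
Counted from the 5′ end, miR-92b differs from miR-92a by U10C, G21C and U22C (the base of miR-92a first), all outside the seed. miR-92b lies at chr1:155195237-155195258 on the plus strand, miR-25 at chr7:100093571-100093592 on the minus strand and miR-32 at chr9:109046272-109046293 on the minus strand. miR-92a has copies at chr13:91351361-91351382 (plus) and chrX:134169544-134169565 (minus).

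Other miRNAs that stood high with the STAT3 probe carried seeds of their own, and 4 are shown because they followed or separated the miR-92 pair in the ranking.
miR-23a: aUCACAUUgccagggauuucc
miR-193b: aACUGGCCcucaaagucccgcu
miR-423-3p: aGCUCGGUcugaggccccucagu
miR-30c: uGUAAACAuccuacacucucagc
miR-23a lies at chr19:13836595-13836615 (minus), miR-193b at chr16:14304017-14304038 (plus) and miR-423-3p at chr17:30117131-30117153 (plus); miR-30c has copies at chr1:40757300-40757322 (plus) and chr6:71377003-71377025 (minus).

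The next set stood low with the STAT3 probe and is shown beside miR-29b, which shares the seed of miR-29a and miR-29c but did not stand low.
miR-934: uGUCUACUacuggagacacugg
miR-136: aCUCCAUUuguuuugaugaugga
miR-29c: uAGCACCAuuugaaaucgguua
miR-29a: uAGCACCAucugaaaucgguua
miR-29b: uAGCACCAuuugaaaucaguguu
miR-29c differs from miR-29a by C10U alone (the base of miR-29a first, from the 5′ end). miR-934 lies at chrX:136550892-136550913 (plus), miR-136 at chr14:100884716-100884738 (plus) and miR-29c at chr1:207801865-207801886 (minus).

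The last set was detected with the STAT3 probe and not with the control probe. miR-197 and miR-365 had the lowest STAT3 Cq of such assays on panel 1, and the 2 pairs that follow share a seed and came up together.
miR-197: uUCACCACcuucuccacccagc
miR-365: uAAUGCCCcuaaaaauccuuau
miR-192: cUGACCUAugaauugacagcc
miR-215: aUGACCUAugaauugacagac
miR-502-3p: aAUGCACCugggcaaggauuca
miR-501-3p: aAUGCACCcgggcaaggauucu
miR-215 differs from miR-192 by C1A and C20A, and miR-501-3p from miR-502-3p by U9C and A22U. miR-197 lies at chr1:109598940-109598961 (plus), miR-192 at chr11:64891203-64891223 (minus) and miR-215 at chr1:220117916-220117936 (minus). The panel name miR-365 was matched to miR-365a, at chr16:14309340-14309361 (plus), close to miR-193b. The assay does not show from which gene its RNA came.

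Most miRNAs were scarce in both purifications. The median Cq of detected assays was 33.15 with the control probe and 33.42 with the STAT3 probe on panel 1, and 34.33 and 34.07 on panel 2. Water wells stayed empty (0 of 2 with a Cq per purification on panel 1 and 0 of 7 on panel 2). The spliceosomal RNA U6 and the nucleolar RNAs SNORD38B and SNORD49A, which are no miRNAs, were themselves reached 1.44 to 1.91 cycles earlier with the STAT3 probe on panel 1 and 2.12 to 2.67 cycles earlier on panel 2. UniSp6, a synthetic RNA on the panels, was 0.49 cycles later with the STAT3 probe on panel 1 and 0.82 cycles earlier on panel 2. With 1 purification per probe, differences had no replicate check and carry no p-value. The error at hand came from assays on both panels, whose differences between purifications had an SD of 0.72 cycles (14 pairs). It leaves out the error of transfection and purification. Of the assays on both panels, U6, the SNORDs and UniSp6 had Cqs from 19.90 to 30.70 here, earlier than most detected miRNA assays. The error of later wells was not tested apart.

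Among the 100 assays detected with both probes, the STAT3 probe was 0.49 cycles ahead at the median of panel 1 (87 assays) and 1.13 at that of panel 2 (13 assays). Values below are the control Cq minus the STAT3 Cq after this median was taken off each panel, in log2 units. By this measure 29 assays (29%) were at least 1 log2 unit (2-fold) higher with the STAT3 probe, 25 (25%) were at least as much lower and 46 lay between. Before centring 68 of the 100 were ahead with the STAT3 probe. Values of 21 assays lay above and 20 below 2 technical SDs (1.44). Values just inside the 2-fold limit were 1.02 for miR-20a and miR-675* and 1.11 for let-7e, and just outside it 0.99 for miR-181a, -0.98 for let-7f and 0.83 for miR-27a. These values lie closer to the limit than the technical SD.

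**Figure D1:**
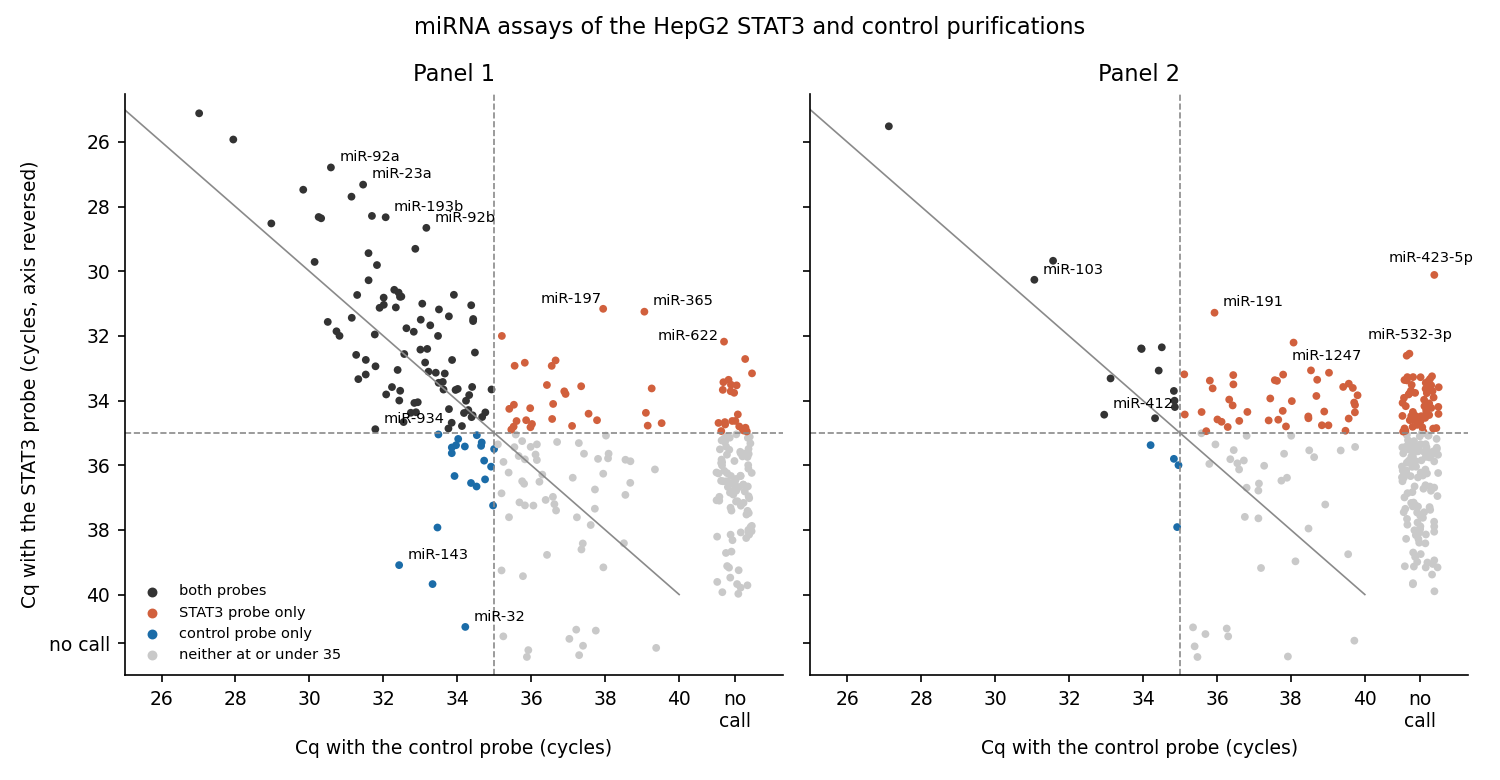
Cq with the control probe (horizontal) against Cq with the STAT3 probe (vertical, reversed so that more RNA is higher) for each miRNA assay with a Cq in at least 1 of them, on panel 1 and panel 2. Dashed lines mark the limit of 35, the diagonal marks equal Cq, and wells with no call are set in a strip at the edge with a small random offset; the 104 assays of panel 2 detected with the STAT3 probe only fill the upper right, while 13 lie in the upper left.

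The choice of centre moves all values of a panel by the same amount. Relative to the panel median, values of panel 1 become 0.49 higher without centring, 0.98 higher with UniSp6 and 1.79 higher with UniSp3, a calibrator template on each plate. They move by -1.26 with U6 and the SNORDs as the centre, and by -1.62 with the reference assays, which on panel 1 are those 3 together with miR-423-5p and miR-103, themselves among the 15 highest. On panel 2 the reference assays are those 3 and miR-103, since miR-423-5p there, and miR-191 on both panels, were not detected with the control probe. On panel 2 the settings, in the same order, move values by 1.13, 0.31, 1.23, -1.18 and -0.80. Under all 5 of these, 15 of the 29 higher assays remained above 0 and 13 of the 25 lower ones remained below 0. The 15 are the 15 highest, described next.

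The 15 highest included known tumour-associated and broadly expressed miRNAs, led by miR-92b. miR-92b had a Cq of 33.16 with the control probe and 28.66 with the STAT3 probe, a centred value of 4.02 (16.2-fold). miR-92a, made from the miR-17 to miR-92a cluster that is often amplified in lymphoma, went from 30.58 to 26.79 (3.30). miR-25, of the same seed, went from 33.77 to 31.39 (1.89). All 3 were thus earlier with the STAT3 probe than with the control probe, and under the other centres their values stayed above 0 (lowest 2.40, 1.69 and 0.27).

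miR-23a, which is transcribed with miR-27a and miR-24, had Cqs of 31.45 with the control and 27.32 with the STAT3 probe (3.64). miR-24 followed at 1.44 and miR-27a at 0.83, so the members of that transcript had unequal values although they come from a single precursor. The other copy of this cluster gave 1.23 for miR-23b and 0.48 for miR-27b, with miR-24 shared. On the reference centre the values of miR-24, miR-27a, miR-23b and miR-27b turned negative, and that of miR-23a was 2.03.

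miR-193b went from 32.06 with the control probe to 28.33 with the STAT3 probe (3.24). miR-423-3p went from 32.86 to 29.30 (3.07) and its partner from the other arm of the hairpin, miR-423-5p, from 34.43 to 31.48 (2.46). Both arms of that hairpin were therefore recovered. miR-30c went from 31.14 to 27.69 (2.95), while miR-30b, of the same family, reached 0.73. miR-484 went from 33.91 to 30.73 (2.69) and miR-574-3p from 34.43 to 31.54 (2.40).

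miR-125a-5p, a relative of the worm lin-4 miRNA, had Cqs of 31.69 with the control probe and 28.29 with the STAT3 probe (2.91). It is made with let-7e (1.11) and miR-99b (1.56), and all 3 were at least 2-fold higher, though let-7e and miR-99b fell to -0.51 and -0.06 on the reference centre. miR-125b went from 29.83 to 27.48 (1.86) and miR-99a reached 1.53. miR-15b went from 34.38 to 31.05 (2.83), whereas miR-16, from the same cluster and with the same seed, was at 33.22 and 33.11 (-0.38). miR-320a, which is cut from its precursor without Drosha, went from 31.60 to 29.44 (1.67).

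The remaining member of the 15, miR-103, was measured on both panels and gave unequal values. It moved from 33.50 to 31.18 on panel 1 (1.83) and from 31.06 to 30.26 on panel 2 (-0.33). Uncentred, the differences were 2.32 and 0.80 cycles, both towards the STAT3 probe. miR-191, also on both panels and above the limit with the control probe on each, differed by 2.63 cycles on panel 1 and by 4.65 on panel 2 as read. The repeated assays of these miRNAs thus lay more than a cycle apart.

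**Figure D2:**
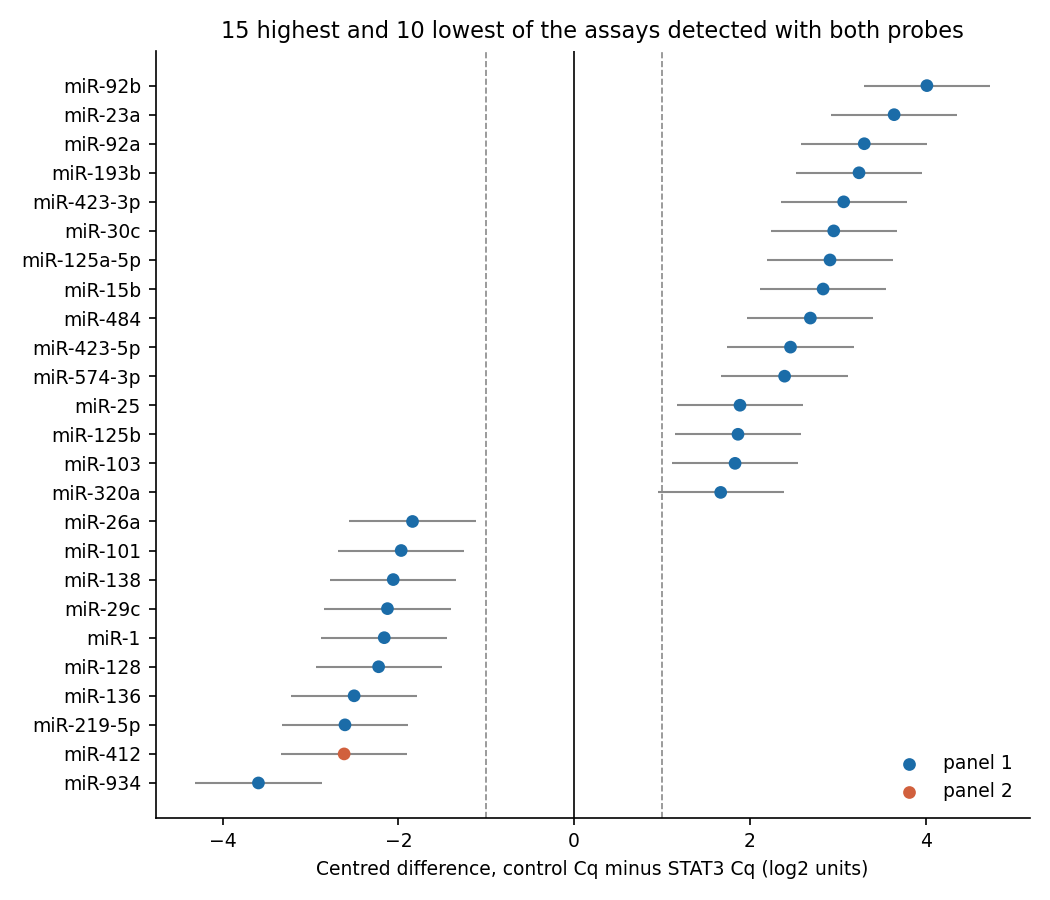
Centred difference (control Cq minus STAT3 Cq, log2 units) of the 15 highest and 10 lowest assays detected with both probes; bars are the technical SD of 0.72 cycles from assays on both panels, not a replicate error, and dashed lines mark 2-fold. miR-92b is highest at 4.02 and miR-934 lowest at -3.59.

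The earliest Cqs of all belonged to names that have since been withdrawn from miRBase as pieces of other RNAs. miR-720, from a transfer RNA, had 27.02 with the control and 25.11 with the STAT3 probe (1.41). miR-1979 had 27.94 and 25.92 (1.53), and miR-1974, from a mitochondrial transfer RNA, had 27.13 and 25.51 on panel 2 (0.48). Each was abundant with the control probe too.

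The 10 lowest included several miRNAs best known from brain and muscle. miR-934 went from 31.78 with the control probe to 34.89 with the STAT3 probe, a centred value of -3.59, and was the lowest. miR-412 on panel 2 went from 32.95 to 34.44 (-2.62), and miR-136, of the same imprinted region of chromosome 14, from 31.32 to 33.34 (-2.50). Both stayed below 0 under every centre tried, as did miR-934 (highest -1.80, with miR-412 at -1.39 and miR-136 at -0.71).

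miR-219-5p, an oligodendrocyte miRNA, went from 32.55 to 34.66 (-2.61), the neuronal miR-128 from 32.08 to 33.81 (-2.23) and miR-138 from 32.43 to 33.999 (-2.06). The muscle miRNA miR-1 went from 31.52 to 33.19 (-2.16). miR-29c went from 32.74 to 34.38 (-2.13), miR-101 from 32.88 to 34.36 (-1.97) and miR-26a from 32.23 to 33.58 (-1.84). All 10 were later with the STAT3 probe as read, and with UniSp3 as the centre 8 of them came within 1 log2 unit of 0.

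Lists of miRNAs that mark other cell types than liver had low medians among the members detected with both probes, where the median of all such assays is 0 and 25% were at least 2-fold lower. Of 8 neural miRNAs, 7 were detected with both probes, 5 of these were at least 2-fold lower and the median was -1.67; miR-124 (28.97 and 28.52) was an exception at -0.04 and was among the earliest Cqs of both purifications. Muscle miRNAs had 2 of 3 lower (median -1.56), blood-cell miRNAs 2 of 3 (median -1.71, with miR-223 and miR-451 lower and miR-142-3p at -0.18) and stromal miRNAs 3 of 3 (median -1.62, with miR-126, miR-145 and miR-199a-5p). Other members ran the opposite way or were not measured with both: neural miR-153 (35.46 with the control and 34.90 with STAT3) and stromal miR-214 (39.15 and 34.77) were STAT3-only, while miR-150 and miR-143 were control-only. With UniSp3 as the centre the 4 medians turned to 0.12, 0.23, 0.08 and 0.17. With the control probe the 7 neural miRNAs had Cqs from 28.97 (miR-124) to 34.18 (miR-137), and the source of that RNA was not tested. In a purification, less of an RNA in the cells and less of it drawn out with the probe cannot be told apart.

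Liver-enriched miRNAs were not detected with the control probe, and 4 of 6 were detected with the STAT3 probe, beside 139 of all 375 assays of that panel. miR-122, the defining hepatocyte miRNA, gave no call with either probe, and HepG2 is known to make little of it. miR-885-5p also gave no call with either. The 4 detected with the STAT3 probe only were miR-215 at Cq 33.67, miR-192 at 33.76, miR-148a at 34.41 and miR-194 at 34.43. miR-148a had a late control Cq of 37.55, and the other 3 had none. With the control at the limit, the centred bounds were 0.84, 0.75, 0.10 and 0.08 in that order, all under 2-fold. The reference centre moves values of panel 1 by -1.62, which puts all of them below 0 and leaves no direction.

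On panel 1, 52 of the 375 assays (13.9%) were detected with the STAT3 probe only. Their STAT3 Cqs ran from 31.16 to 34.95 with a median of 34.32, and 30 of the 52 were above 34. The control well of 23 gave no call, that of 19 gave a Cq from 35 to 37 and that of 10 a later one. With the control set to the limit, 12 were at least 2-fold higher after centring, while the bound of 23 was below 0 and so gives no direction.

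The clearest of them had far later control Cqs. miR-197 had a control Cq of 37.95 and a STAT3 Cq of 31.16, at least 10.2-fold higher. miR-365, whose miR-365a gene lies close to miR-193b, had 39.06 and 31.25, at least 9.57-fold higher. miR-31, with 35.20 and 32.0003, was at least 5.69-fold higher, and miR-622, with no call and 32.18, at least 5.03-fold. These bounds depend on the centre: on the reference assays they were 3.32, 3.12, 1.86 and 1.64.

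Next in order of STAT3 Cq came miR-877 (32.71), a mirtron that splicing releases, miR-30a (32.76), miR-502-5p (32.83), miR-191 (32.92) and miR-296-5p (32.93), with bounds from 3.47-fold downwards. miR-330-3p (33.16), the epithelial miRNA miR-200c (33.36) and miR-452 (33.43) completed the 12 with the lowest Cq, with bounds down to 2.11-fold. Of these 12, 5 had no call with the control probe: miR-622, miR-877, miR-330-3p, miR-200c and miR-452.

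Panel 2 had 104 STAT3-only assays among 370 (28.1%). Its assays include 126 of star strands and 63 of miRNAs numbered from 1000. The control probe reached the limit with 17 assays of that panel and the STAT3 probe with 117. The 104 had STAT3 Cqs from 30.11 to 34.99 with a median of 34.16, 58 of them above 34 and 5 at or under 33. The control well gave no call for 60, a Cq from 35 to 37 for 16 and a later one for 28. After centring 5 of the 104 had a bound of at least 2-fold, and 63 had a bound below 0.

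Those 5 were miR-423-5p (no call and 30.11, at least 13.5-fold), miR-191 (35.93 and 31.28, at least 6.0004-fold), miR-1207-5p (38.07 and 32.21, at least 3.16-fold), miR-532-3p (no call and 32.55, at least 2.49-fold) and miRPlus-D1033, a name of the panel maker (no call and 32.61, at least 2.39-fold). miR-663b (33.07), miR-1247 (33.14), miR-502-3p (33.19), miR-103-2* (33.20), miR-1254 (33.21), miR-34a* (33.25) and miR-943 (33.27) followed, with bounds between 1.74-fold and 1.51-fold. miR-423-5p was detected with both probes on panel 1, 5.51-fold higher, which is under its bound on panel 2. On panel 2, 58 of the 104 STAT3-only assays thus lay within 1 cycle of the limit, as did 30 of the 52 on panel 1.

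The number of STAT3-only assays followed the limit steeply. At Cq 32 there were 24 on panel 1 and 2 on panel 2, at Cq 33 there were 25 and 8, and at Cq 34 there were 30 and 49. At Cq 36 the counts were 79 and 149, and with any called Cq they were 114 and 172. Panel 2 overtook panel 1 between limits of 33 and 34. Control-only assays never exceeded 22 on panel 1 or 8 on panel 2 at any limit tried.

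**Figure D3:**
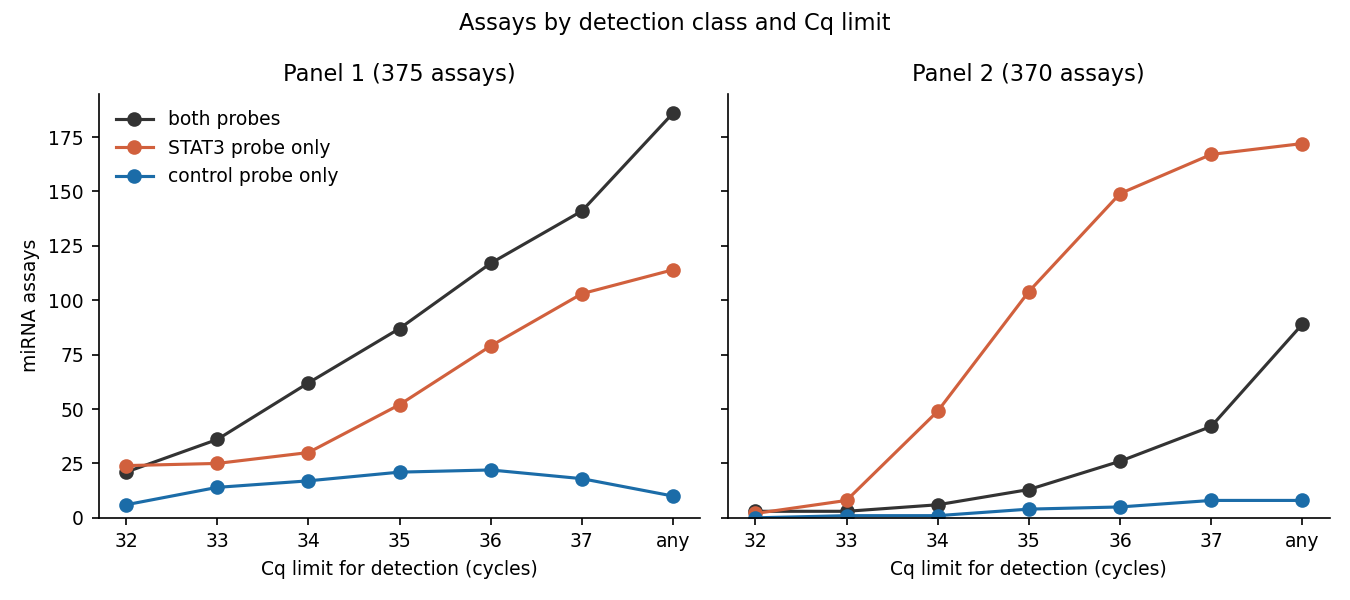
Number of miRNA assays detected with both probes, the STAT3 probe only or the control probe only (vertical) at each Cq limit (horizontal, up to any called Cq), for panel 1 and panel 2. On panel 2 the STAT3-only line climbs from 8 at a limit of 33 to 104 at 35, above the line for both probes.

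Reading the control probe with a later limit, by the shift of each centre, bears on the STAT3-only count. With the panel median as the shift (control limit 35.49 and 36.13) the counts became 49 and 95. With U6 and the SNORDs as the shift (control limit 36.75 and 37.31) they became 35 and 88, and the control-only counts rose to 53 and 26. Of the 104 assays of panel 2, 60 had no control Cq at any cycle, so no later limit could move them to both. On that panel any Cq was called in 261 of 370 wells with the STAT3 probe, 182 with the p21 probe of the same cells and 97 with the control probe.

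Another purification held part of these assays. With the p21 probe, aimed at a different messenger RNA in the same cells, 25 of the 52 STAT3-only assays of panel 1 were detected (48.1%), beside 128 of all 375 (34.1%). On panel 2 the p21 probe detected 41 of the 104 (39.4%), beside 83 of all 370 (22.4%). The STAT3-only assays had passed the limit in a HepG2 purification, while all assays include those that neither probe detected. A higher share with p21 can follow from that choice, so these shares are not like for like. In PC-3, a prostate cancer line, the p21 probe detected 5 of the 52 (9.62%) and 5 of the 104 (4.81%), near its 10.1% and 4.05% over all assays of the panels. The 2 HepG2 target purifications are read against 1 control, so a low control well makes an assay stand out in both.

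Several STAT3-only assays belonged to genes that lie side by side. Of the clusters formed by miRNA genes within 10 kb of each other on a strand, 22 had at least 3 detected assays. These clusters were picked by their detected assays, and their counts stand beside the 13.9% and 28.1% of all assays that were STAT3-only on panel 1 and panel 2. All 4 assays of miR-192 and miR-194 were STAT3-only: miR-192 (33.76), miR-194 (34.43) and their stars (34.58 and 34.23), none with a control call. With the control at the limit, the centred bounds were 0.75 for miR-192 and 0.08 for miR-194. Those of the stars were -0.71 and -0.36, which give no direction. All 4 assays of the miR-193b and miR-365 cluster were detected with the STAT3 probe, 1 with both probes and 3 with it alone (miR-365 at 31.25, miR-365* at 33.77 and miR-193b* at 34.81).

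The X chromosome held further groups of this kind. miR-532, miR-188, miR-500, miR-362, miR-501, miR-660 and miR-502 are neighbours there. Of their 12 assays 6 were STAT3-only, from 32.55 (miR-532-3p) to 34.74 (miR-660), 1 was detected with both (miR-532-5p, -0.49) and 5 with neither. The bound of miR-532-3p was 2.49-fold, while that of miR-660 was below 0 (-0.23) and gives no direction. Of the 4 assays of miR-224 and miR-452, 3 were STAT3-only (miR-452 at 33.43, miR-224 at 33.71 and miR-224* at 33.92), and of 4 of miR-105 and miR-767 also 3 (33.69 to 34.87). At miR-424, miR-503 and miR-450, miR-424* (33.27), miR-503 (33.71) and miR-450b-3p (34.56) were STAT3-only, while miR-424 itself was control-only (33.85 and 35.45).

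Beyond X, miR-191 (32.92 and 31.28 on the panels) and miR-191* (33.36) were STAT3-only, with their neighbour miR-425 just past the limit (35.51). In the miR-200 family of epithelial miRNAs 3 of 5 assays were STAT3-only, miR-200c (33.36), miR-200a (34.88) and miR-141 (34.93). The other members, miR-200b and miR-429, came later (35.42 and 36.32), and none of the 5 had a control call. The bounds of miR-200a (-0.37) and miR-141 (-0.42) were below 0 and give no direction, while that of miR-200c was 2.22-fold. Of the stars of that family on panel 2, miR-141* was control-only (34.92 and 37.91), and miR-200a*, miR-200b* and miR-200c* passed the limit with neither probe. The imprinted region of chromosome 14 is known from brain and placenta. Its large cluster by the 10 kb rule, which leaves out other genes of the region such as miR-136, had 45 assays. Of these, 6 were STAT3-only, 2 control-only (miR-134 and miR-495), 1 with both (miR-412) and 36 with neither. The STAT3-only share of this cluster did not exceed that of either panel. The placental group of chromosome 19, miR-515 to miR-527, had 45 assays too and none that was STAT3-only; 1 was detected with both probes (miR-520h, 33.12 and 33.31) and 44 with neither. In that group a STAT3 Cq of any size was called in 7 of 20 wells on panel 1 and 12 of 25 on panel 2, beside 300 of 375 and 261 of 370 over all assays.

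**Figure D4:**
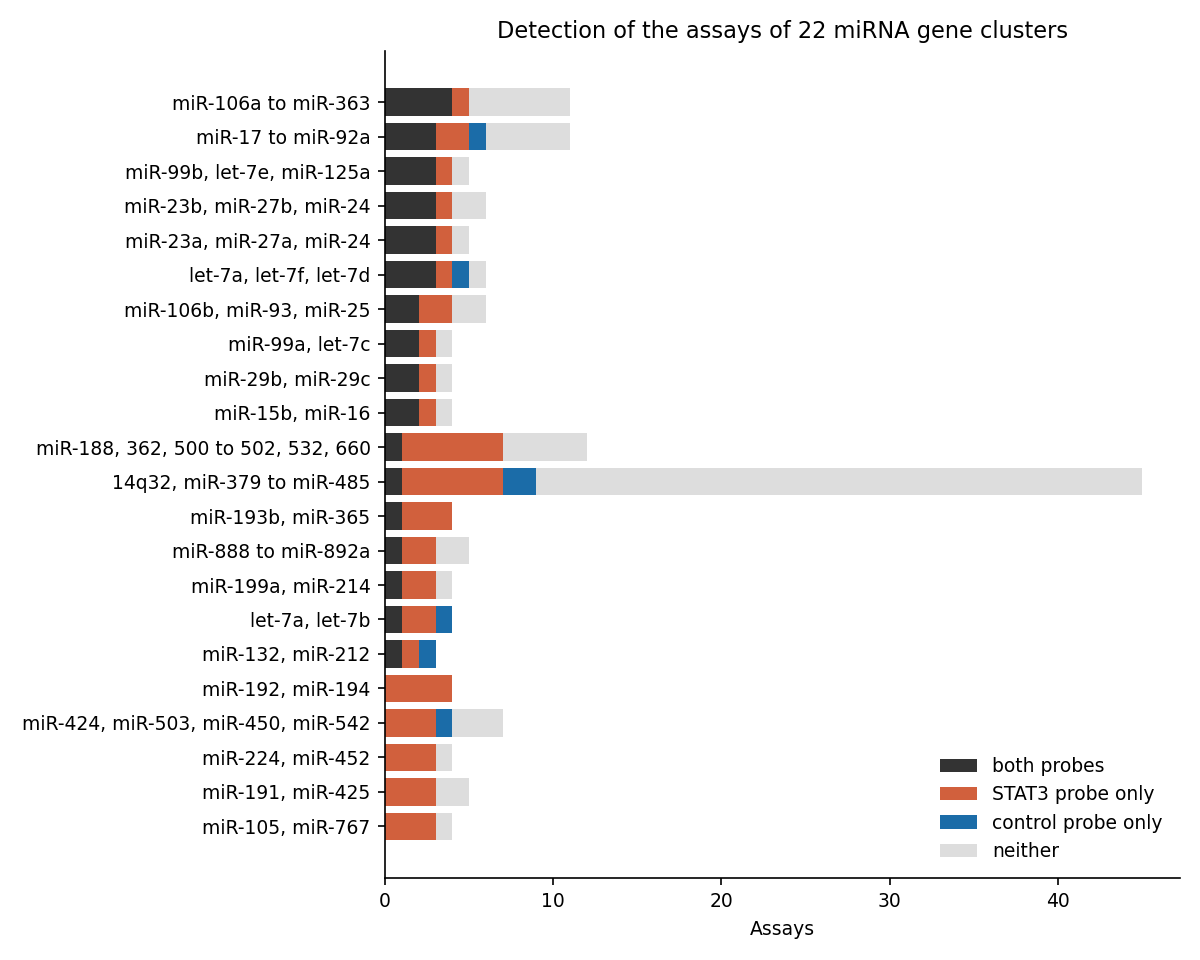
Number of assays (horizontal) detected with both probes, the STAT3 probe only, the control probe only or neither, in the 22 clusters of miRNA genes with at least 3 detected assays; miRNAs with several gene copies count in each of their clusters. The 4 assays of miR-192 and miR-194 are all STAT3-only, and 36 of the 45 in the chromosome 14 cluster were detected with neither probe.

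Over both panels 155 assays were of star strands: 4 were detected with both probes, 36 with the STAT3 probe only, 3 with the control probe only and 112 with neither. On panel 2, 33 of 126 star assays were STAT3-only (26.2%), beside 49 of 181 unmarked ones (27.1%), 7 of 26 marked 5p (26.9%) and 15 of 37 marked 3p (40.5%). The rate among star assays was thus close to the 28.1% of all assays of that panel. The STAT3-only stars with the lowest Cq were miR-103-2* (33.20), miR-34a* (33.25), miR-424* (33.27), miR-449b* (33.28), miR-30a* (33.33) and miR-191* (33.36).

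Stars and their guide strands could be set side by side in 150 pairs. Where the guide was detected with the STAT3 probe (87 pairs), the star was too in 28 (32.2%), and where it was not (63 pairs), in 10 (15.9%). miR-550a* was a case of the latter, at 33.39 while miR-550a came at 37.02, and miR-449b* another, at 33.28 against 35.91. Of the assays detected with both probes, the stars were let-7d* (30.14 and 29.71, -0.06), miR-126* (-0.52), miR-31* (-0.10) and miR-675* (1.02). By number of the name, 33.3% of the panel 2 assays of miRNAs numbered from 1000 were STAT3-only, beside 28.1% of all.

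Control-only assays were few, 25 of 745 (3.36%), with 21 on panel 1 and 4 on panel 2. miR-143, a smooth-muscle and stromal miRNA, had a control Cq of 32.43 and a STAT3 Cq of 39.09, at least 8.37-fold lower. miR-34c-5p, which p53 induces, had 33.33 and 39.68 (at least 4.47-fold lower), miR-135a 33.46 and 37.93 (4.08-fold) and miR-328 33.49 and 35.05 (4.01-fold). The other 6 of the 10 lowest control Cqs were let-7a (33.85), miR-424 (33.85), miR-708 (33.92), miR-134 (33.97), miR-150 (34.02) and miR-186 (34.20), whose bounds ran from 3.12-fold to 2.44-fold.

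The STAT3 well of these 25 was rarely empty. It gave a Cq from 35 to 36 for 14 and a later one for 10, and only miR-32 (control 34.22) had no call. With the p21 probe 14 of the 25 were detected (56%), beside 211 of all 745 assays (28.3%). The 25 had passed the limit with the control probe in the same cells, which most of the 745 did not. These shares are therefore not like for like.

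Members of a seed family moved by unequal amounts. Families were counted from assays matched to a sequence, and 7 had at least 3 detected. The miR-30 family fell outside this count because miR-30b had no matched sequence. Of its 5 assays, 2 were detected with both probes and 1 with STAT3 only. Among the 7, that of miR-25, miR-92a and miR-92b was the one whose members measured with both probes all stood above 0 under every centre. These were also at least 2-fold higher under the median. miR-32, of that seed, was control-only, and miR-363 and miR-367 were detected with neither. miR-99a (1.53) and miR-99b (1.56) were close to each other, and miR-100, of the same seed, was STAT3-only (35.97 and 34.24).

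Other families were split. miR-15b stood at 2.83, miR-15a at 0.62 and miR-16 at -0.38, with miR-424 control-only. miR-29a (-1.73) and miR-29c (-2.13) were lower, miR-29a turning to 0.06 with UniSp3, but miR-29b was at 0.01. miR-103 on panel 1 and miR-107, which differ by G22C (the base of miR-103 first), were at 1.83 and -1.16. No cross-reaction test of the assays was used here, so how well they separate such relatives is unknown.

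The let-7 family, which restrains growth genes, had 7 of 9 assays detected with both probes, 3 of them at least 2-fold higher, beside 29% of all assays detected with both (let-7d 1.47, let-7b 1.47 and let-7e 1.11). let-7c (-0.26), let-7i (-0.49), let-7g (-0.79) and let-7f (-0.98) lay between the limits and let-7a was control-only (33.85 and 35.63); miR-98 was detected with neither. The median was -0.26, turning to 0.23 without centring, 0.72 with UniSp6 and 1.53 with UniSp3. let-7a and let-7f, which differ by G12A (let-7a first), were thus both on the low side under the panel median.

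**Figure D5:**
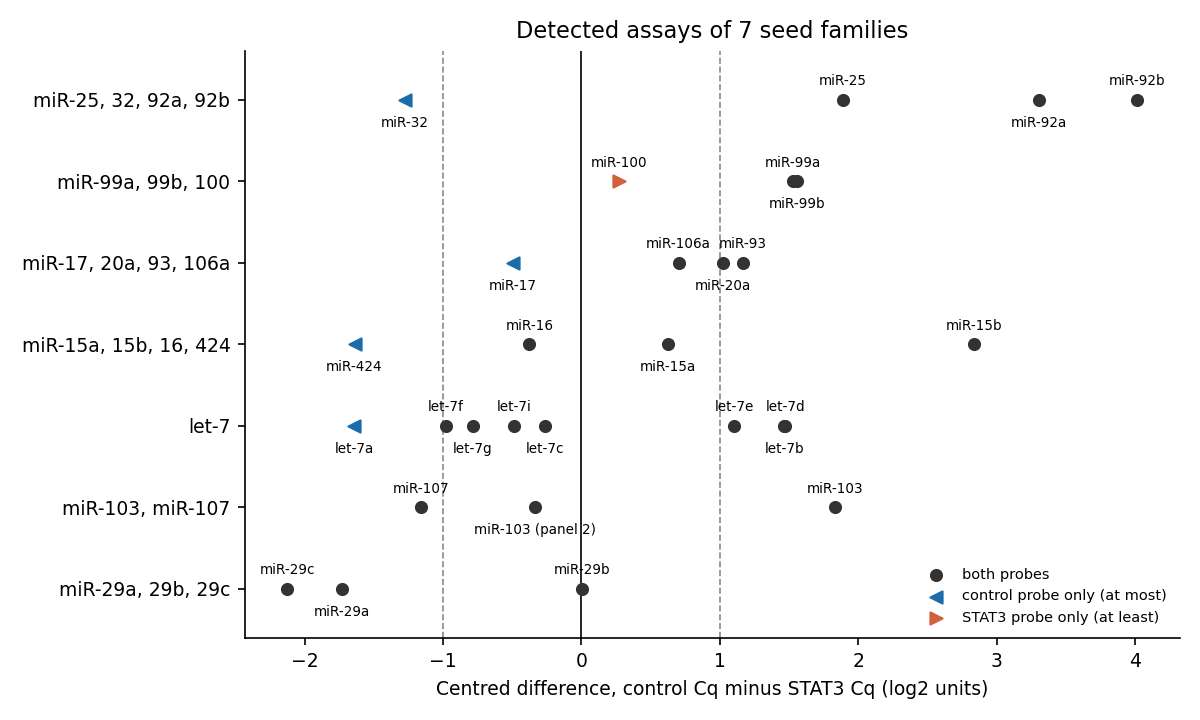
Centred difference (log2 units, horizontal) of the detected assays of the 7 seed families counted from matched sequences. Circles were detected with both probes, left-pointing triangles with the control probe only (upper bound) and the right-pointing triangle, miR-100, with the STAT3 probe only (lower bound); miR-25, miR-92a and miR-92b lie at 1.89, 3.30 and 4.02.

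miRNAs reported to act on STAT3 mRNA did not stand together. Of 14 listed, 13 were on the panels: 6 were detected with both probes, 2 with the control probe only, 5 with neither and 0 with the STAT3 probe only. miR-125b (1.86), miR-93 (1.17) and miR-20a (1.02) were at least 2-fold higher, 3 of 6 beside 29% of all assays detected with both; miR-106a (0.70) and miR-124 (-0.04) lay between and miR-223 (-1.71) was lower. let-7a and miR-17 were control-only (miR-17 at 34.996 and 35.498), and miR-20b, miR-106b, miR-337-3p, miR-519a and miR-544 passed the limit with neither probe. The median of the 6 was 0.86, where all assays detected with both have 0 by construction. On the reference centre it turned to -0.75, with only miR-125b above 0 (0.25), and it was -0.40 on U6 and the SNORDs.

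Base composition differed between the classes. The median share of G and C in the mature sequence was 50% for the higher assays (26 with a sequence), 47.8% for those between (41) and 43.2% for the lower ones (24). It was 52.3% for the 15 highest and 39.5% for the 10 lowest. Across the 79 assays of panel 1 detected with both probes and matched to a sequence, the value and the G and C share had a Pearson r of 0.35 and a Spearman rho of 0.41; these assays come from a single pair of purifications and are not replicates. In assays with a control Cq at or under the median (40) r was 0.36 and in the later ones (39) 0.34. STAT3-only assays had medians of 50% on panel 1 and 52.2% on panel 2, beside 47.6% and 50% over all assays of the panels. On panel 1 the p21 probe against the same control gave an r of 0.20 and a rho of 0.25 (78 assays). For STAT3 against p21 they were -0.08 and -0.10 (88 assays). The part of base composition in the enrichment was not tested.

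Against the same control, the p21 probe shared much of this ordering. All of the 15 highest but miR-125b were above 0 with p21 too. Of the 10 lowest, miR-128 (-3.22 with p21), miR-412 (-2.71) and miR-136 (-2.42) were also below 0. So were miR-26a (-2.35), miR-219-5p (-2.12) and miR-29c (-1.30). The others, miR-1, miR-138, miR-101 and miR-934, were not detected with the p21 probe. The size of the value differed for several miRNAs. miR-92a stood at 7.74 with p21 and 3.30 with STAT3, miR-92b at 6.41 and 4.02 and miR-193b at 5.41 and 3.24. miR-23a (2.53 and 3.64), miR-423-3p (1.39 and 3.07) and miR-30c (1.10 and 2.95) had the larger value with the STAT3 probe. miR-125b stood at -1.30 with p21 and 1.86 with STAT3, with Cqs of 29.83 and 27.48 and a control of 29.83. Each of these rests on 1 control well per miRNA, which enters both values.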

How the data were processed

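The deposited table holds Cq values as read, 1 well per assay and purification, with wells without a call left undetermined; per the labels they come from Exiqon SYBR Green panels. Instrument, threshold and software were not stated there. The authors also deposited fold ratios of STAT3 over control, per the file headers scaled on an unnamed housekeeping gene. Here 1 cycle was taken as 1 log2 unit. Detection meant a Cq of at most 35, values were centred per panel on the median of assays detected with both probes, and at least 1 log2 unit counted as higher or lower. A bound sets the undetected probe to Cq 35. Groups came from the sample titles. Mature sequences were matched by name to RefSeq for 638 of 745 assays and genes for 695; the arm of names without 5p or 3p was set by hand, from general knowledge. No replicate exists, so no test was made; precision rests on repeated wells, and depth on the Cq itself. Members and lists were chosen with earlier results of these data known. The miRNAs named are the 15 highest, the 10 lowest, the 12 STAT3-only assays of lowest Cq per panel, the 10 control-only of lowest control Cq, families and clusters with at least 3 detected assays, the lists and the reference assays; withdrawn names, single stars, and the split by number were added after their values were seen. Calculations used Python 3.11.15, pandas 2.3.3, NumPy 2.4.6 and SciPy 1.17.1 and were tested on simulated data. Alternatives covered the limit, the centre, undetected wells at 35, cluster distance and seed length.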

Additional observations from a re-analysis of the deposited data

How the results depend on the processing

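Each purification was made 1 time, and most values lie near the detection limit, so small differences there carry little. No paired analysis was possible because each probe has 1 purification. Seed matches in the STAT3 transcript were not run, since no transcript sequence was used here. With limits of 32, 33, 34 and 37 and any Cq, STAT3-only assays (156) numbered 26, 33, 79, 270 and 286. Assays with both probes (100) numbered 24, 39, 183 and 275 at 32, 33, 37 and any Cq, and control-only assays (25) 6 and 15 at 32 and 33. Higher assays (29) numbered 4, 7, 17, 48 and 95 at 32, 33, 34, 37 and any Cq, and lower ones (25) 9, 9, 16, 38, 49 and 87 at 32, 33, 34, 36, 37 and any Cq. Among the 100, the split of higher and lower was 9 and 59 on the reference assays and 11 and 54 on U6 and the SNORDs. It was 44 and 10 on UniSp6, 71 and 2 on UniSp3 and 41 and 20 uncentred. With undetected wells at 35, which brings in assays detected with 1 probe only, it was 46 and 48. The authors' deposited table gave 77 and 60, counted over all of its 729 entries, also a wider set. STAT3-only bounds of at least 2-fold (17) numbered 68 uncentred, 4 on the references, 6 on U6 and the SNORDs, 36 on UniSp6, 102 on UniSp3 and 135 with the control at its own Cq or at 37. On UniSp3 the neural, muscle, blood-cell and stromal medians turned to 0.12, 0.23, 0.082 and 0.17. With the control limit shifted, STAT3-only assays numbered 120 to 179. Clusters numbered 20 and 25 at 3 and 50 kb (22 at 10 kb), and seed families 7 with bases 2 to 7 as well. The let-7 median turned to 0.23 uncentred, 0.72 on UniSp6 and 1.53 on UniSp3, and that of reported STAT3 regulators to -0.75 on the references, -0.40 on U6 and the SNORDs, -0.50 at Cq 32 and -0.078 at Cq 33. In all, 296 values were recomputed, those of the 15 highest, the 10 lowest and the list medians. These 11, all list medians, changed sign, and 147 moved by less than the technical SD. The single miRNAs among them were picked as extremes, so their signs say little of other assays. Under every centre, 15 of the 29 higher and 13 of the 25 lower assays kept their sign.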

Other observations

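The fold ratios that the authors deposited treated late STAT3 wells unevenly. Of the 729 entries, 640 came back within 0.01 log2 units from the Cq values with UniSp6 as the normaliser and every Cq over 35 set to 35. The other 89 came back when the STAT3 Cq was used as read, up to 37.25, with the control still held at 35. Among the 300 entries with a STAT3 Cq over 35, 89 were as read and 211 at 35. The as-read entries made up 54 of 113 with a Cq from 35 to 36, 27 of 81 from 36 to 37 and 8 of those above 37. They were 62 of 161 late entries on panel 1 and 27 of 139 on panel 2. In the authors' deposited table the number of entries at least 2-fold lower is 60, and 46 of those have the STAT3 Cq as read. By which rule entries were capped was not stated in the file.

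miR-622 and miR-143 stood apart in the STAT3 purification from both other HepG2 purifications; they were singled out after their values were seen. miR-622 had no call with the control probe, 37.63 with p21 and 32.18 with STAT3. miR-143 ran the other way, with 32.43, 33.89 and 39.09 in that order. Each value is a single well and was not repeated.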
